A study of Mus musculus with 192 samples.

Results

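The proteasome genes described here are the 48 genes, of 49466 in the count table, whose mouse symbols run from Psma to Psmg followed by a number. They hold the core particle (Psma1 to Psma8 and Psmb1 to Psmb11), the base and lid of the regulatory particle (Psmc1 to Psmc6 and most of Psmd1 to Psmd14), the activators Psme1 to Psme4, the inhibitor Psmf1 and the assembly chaperones Psmg1 to Psmg4. They lie on 16 chromosomes. The members were chosen by symbol and not by their levels. The study measured polyadenylated RNA in single burst-forming (BFU-E) and colony-forming (CFU-E) erythroid progenitors from fetal livers of C57/Bl6J mice at embryonic day 14.5, with no mutant, treated or control group. All cells had passed red cell lysis, depletion of lineage-positive, Sca-1, CD16/32 and CD41 cells, and a sort on CD117, CD71, CD24 and propidium iodide. Each cell type had its own plate and its own lane, no label names an animal or pool, and 92 BFU-E and 89 CFU-E cells passed the depth filter. Each cell type is therefore 1 sample: plate, lane and cell type cannot be told apart, no test was made between them, and intervals cover counting error only.

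The proteasome is the barrel-shaped protease that degrades ubiquitin-tagged proteins in the cytosol and nucleus. Outer alpha rings gate the chamber, inner beta rings carry the catalytic subunits, and a regulatory particle of ATPases and scaffold proteins binds, unfolds and feeds in the substrate. Interferon-responsive and hematopoietic cells can swap the constitutive catalytic subunits for immunoproteasome subunits, and the PA28 cap encoded by Psme1 and Psme2 favours peptides for MHC class I. Erythroid cells are known to use ubiquitin and proteasomes to remodel their proteome as they mature.

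The plates were not uniform. Clusters were made within each plate with the proteasome genes and all pathway genes left out, and were named from marker genes. On the BFU-E plate, 53 cells were erythroid-like, with 13 of 16 erythroid markers at least 2-fold above the rest of the plate. The other 39 were granulocyte-monocyte-like, with 17 of 18 such markers, Mpo and Csf1r among them, and 7 of 10 stem and multipotent progenitor markers also 2-fold above. In the erythroid-like cells of this plate 5 of 9 megakaryocyte markers were also 2-fold above, while Pf4, Gp6 and Ppbp had no count. Megakaryocyte markers summed to 438 CPM there (0 to 2240 per cell) and to 26.3 CPM in erythroid-like CFU-E cells. On the CFU-E plate, 86 cells were erythroid-like and 3 were lymphoid-like, with 10 of 13 lymphoid markers 2-fold above the rest. The lymphoid-like cells were shallower, at a median of 443001 counts against 1005516 for the plate. Each proteasome comparison is therefore given for whole plates and for erythroid-like cells alone. Before thinning, kept cells had medians of 1120768 counts on the BFU-E plate and 1005516 on the CFU-E plate, and every cell was then thinned to 100000 counts. Levels are in CPM, the summed thinned counts scaled to a common library total, and a single count in 1 cell is worth 10 CPM in that cell.

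The summed proteasome level in CPM was slightly higher in CFU-E cells, by an amount that depends on the scale. Summed over the members, BFU-E cells had 9018 CPM and CFU-E cells 10511 CPM, which gives a ratio of 1.17 (95% interval 1.15 to 1.18). In erythroid-like cells alone it was 9217 and 10557 CPM, a ratio of 1.15 (1.13 to 1.16). With TMM scaling factors the ratios were 1.73 for whole plates and 1.74 for erythroid-like cells, and with median-of-ratios factors 1.80 for both. Per cell the sum ran from 4630 through a median of 9290 to 12570 CPM in the 53 erythroid-like BFU-E cells. In the 86 erythroid-like CFU-E cells it ran from 7210 through 10535 to 13390 CPM, so the ranges overlapped widely, and 71 of the 86 lay above the BFU-E median. Granulocyte-monocyte-like cells summed to 8748 CPM and the 3 lymphoid-like cells to 9177 CPM. Without Psmd2 and Psmb1, the ratio was 0.945 (0.934 to 0.956) in erythroid-like cells and 0.961 for whole plates.

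**Figure D1:**
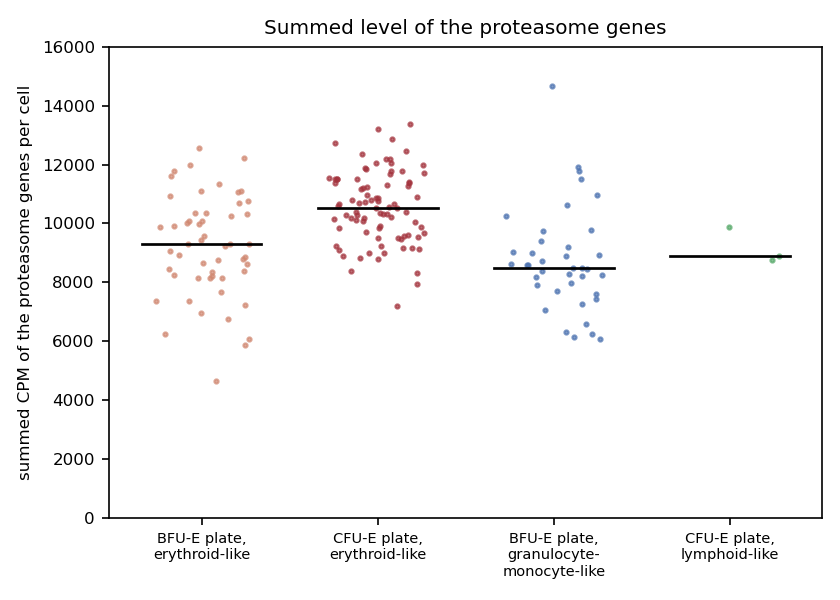
Summed level of the proteasome genes in each cell, in CPM of 100000 thinned counts, for the 4 classes of cells. Points are cells and bars are medians, which lay at 9290, 10535, 8480 and 8900 CPM from left to right, with wide overlap.

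Of the 48 members, 47 had counts and were measured, meaning a mean of at least 5 CPM over the groups compared. Psmb11, the thymus-specific catalytic subunit, had no count in any kept cell before or after thinning. Across whole plates, 9 members were at least 2-fold lower in CFU-E cells, or 19.1% of the members, where the share of all 9445 measured genes was 34%. Another 5 were at least 2-fold higher, or 10.6%, against 6.28% of all genes. In erythroid-like cells, 10 were lower, or 21.3%, against 32.2% of 9109 genes, and 4 were higher, or 8.51%, against 6.07%. The median log2 fold of the members was -0.29, that of all measured genes was -0.54, and 29 of the 47 members lay above the latter. The remaining 33 members were under 2-fold in either direction.

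These counts depend on the scale. Scaling by TMM factors moved the median of all genes from -0.54 to 0.05, and that of the members from -0.29 to 0.29. On that scale 5 members were at least 2-fold lower (15.8% of all genes) and 9 at least 2-fold higher (15.7%). The lower ones were Psmb8, Psmb9, Psme1, Psme2 and Psma8, and the higher ones Psmb1, Psmd3, Psmd2, Psmf1, Psmd9, Psmd5, Psmd4, Psmd11 and Psmd1. Median-of-ratios size factors gave 5 lower (15% of all genes) and 10 higher (16.9%). For whole plates, TMM factors gave 5 lower (18.9%) and 9 higher (15.4%), and median-of-ratios factors 5 lower (17.9%) and 9 higher (16.6%). Signs in CPM and TMM were both positive for 18 members and differed for 12, Psma1, Psma3 to Psma7, Psmb7, Psmd8, Psmd14, Psme3, Psme4 and Psmg2, so no direction is given for these. Members below are reported in CPM, with the TMM value where it bears on the reading. TMM folds of single members come from log2(CPM + 1), whereas CPM ratios have nothing added, which matters most for genes of low level.

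**Figure D2:**
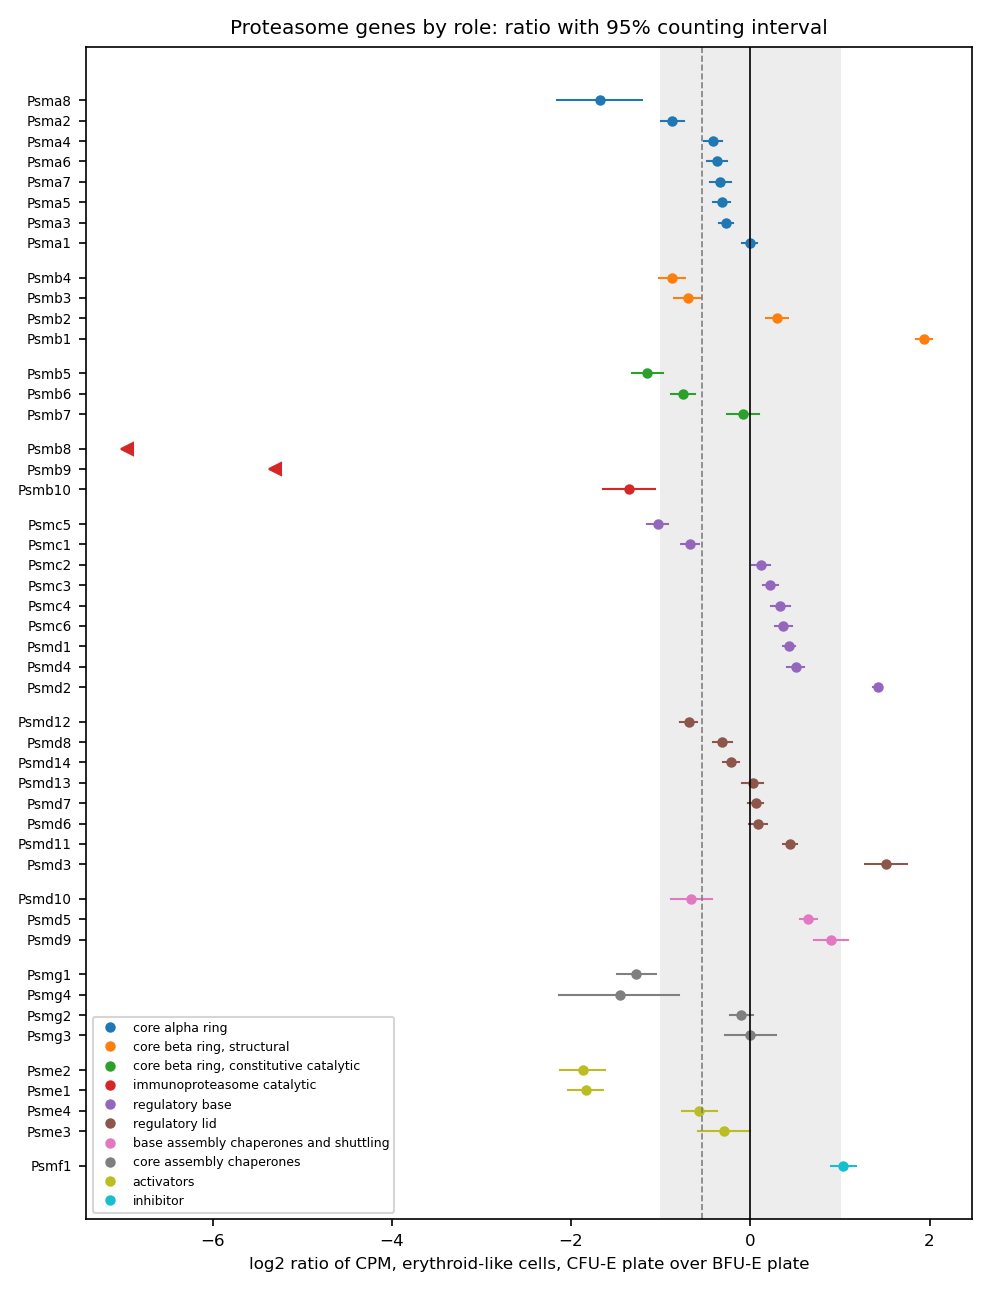
Ratio of CPM on a log2 scale, erythroid-like cells of the CFU-E plate over those of the BFU-E plate, for the 47 measured members grouped by role. Bars are 95% counting intervals, and arrowheads for Psmb8 and Psmb9 mark the ratio against a floor of 3 counts. The dashed line is the median of all genes at -0.54 and the shaded band holds ratios under 2-fold. Psmb8, Psmb9, Psme2 and Psme1 lie farthest to the left and Psmb1, Psmd3 and Psmd2 farthest to the right.

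The immunoproteasome genes showed the widest separation of any subunit group. Psmb8, which encodes the beta5i subunit with chymotrypsin-like activity, stood at 43.4 CPM (37.97 to 49.4) in erythroid-like BFU-E cells. Per cell it ran from 0 through a median of 30 to 170 CPM, with a count in 39 of 53 cells. None of the 86 erythroid-like CFU-E cells had a thinned count, which limits cells with a count at this depth to 4.20% (exact Clopper-Pearson limit) and not cells that express the gene. It puts the level at least 124-fold below that of the BFU-E cells when 3 counts over the whole group are taken as the floor. Granulocyte-monocyte-like cells held 209 CPM, from 0 through 170 to 720, with a count in 38 of 39 cells. The 3 lymphoid-like cells held 50, 60 and 160 CPM, and every thinned Psmb8 count of the CFU-E plate came from them. Psmb8 shares exonic sequence with Gm20496 on the other strand, and reads of that overlap cannot be told apart.

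Psmb9 encodes beta1i, which replaces the caspase-like subunit. It had 13.8 CPM (10.8 to 17.3) in erythroid-like BFU-E cells, with a count in 21 of 53 and a highest cell of 80 CPM. No erythroid-like CFU-E cell had a thinned count, so the level was at least 39.5-fold lower. In granulocyte-monocyte-like cells it had 56.2 CPM with a count in 31 of 39, and in the lymphoid-like cells 0, 30 and 30 CPM. The full libraries held a trace in erythroid-like CFU-E cells: 8 Psmb8 counts in 2 cells and 19 Psmb9 counts in 3 cells, or 0.0773 and 0.184 CPM. The same unthinned levels in erythroid-like BFU-E cells were 36.99 and 15.96 CPM.

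Psmb10, which encodes beta2i with trypsin-like activity, was lower but still present. Its level was 47.7 CPM (42.0 to 53.99) in erythroid-like BFU-E and 18.7 CPM (15.9 to 21.8) in erythroid-like CFU-E cells, 2.55-fold lower (2.08 to 3.13). Cells ran from 0 through 40 to 150 CPM in the former and from 0 through 10 to 90 CPM in the latter, with a count in 57 of 86, so the groups overlapped. Relative to TMM factors the difference was 1.65-fold. Psmb10 was thus detected at a reduced level in CFU-E cells while Psmb8 and Psmb9 were at or near 0.

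**Figure D3:**
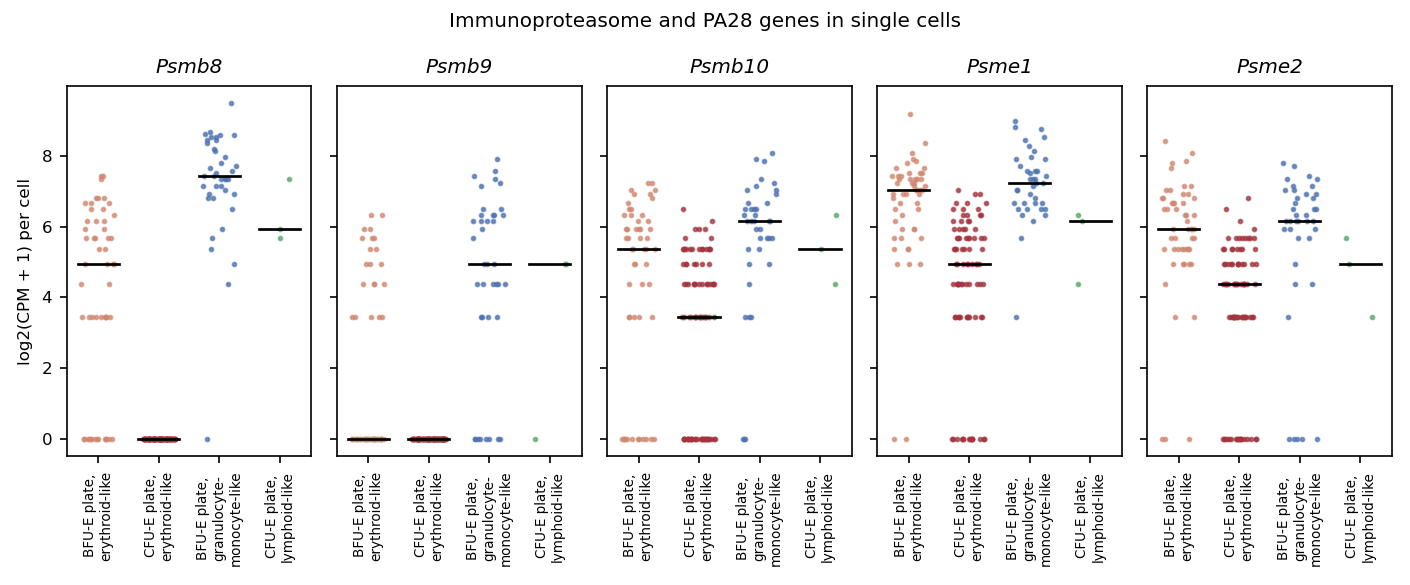
Level of Psmb8, Psmb9, Psmb10, Psme1 and Psme2 in single cells as log2(CPM + 1), by class of cells, with bars at the medians. All 86 erythroid-like CFU-E cells lie at 0 for Psmb8 and Psmb9, and at medians of 10, 30 and 20 CPM for Psmb10, Psme1 and Psme2.

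RNA of the neighbouring granulocyte-monocyte-like cells was looked for in the erythroid-like BFU-E cells. The 18 granulocyte-monocyte markers summed to 130 CPM there (0 to 1050 per cell, 13 with a count and Elane, Ctsg, Cebpe, Ly6c2 and Gfi1 at 0). In the granulocyte-monocyte-like cells they summed to 6058 CPM (120 to 18830 per cell, with Cebpe at 0). In erythroid-like CFU-E cells they summed to 0.9302 CPM (0 to 40 per cell), with 14 of the 18 at 0. Mpo in the erythroid-like BFU-E cells stood at 1.28% of its level in the granulocyte-monocyte-like cells, Csf1r at 0.442% and Flt3 at 0.272%. The same share was 20.8% for Psmb8, 24.5% for Psmb9 and 59.1% for Psmb10. Csf1r and Flt3 were among the 10 genes of highest fold in the granulocyte-monocyte-like cells, and Mpo and Csf1r are markers that named them. Their low shares follow in part from how the classes were drawn and named. The 10 stem and multipotent progenitor markers, Flt3 among them, summed to 402 CPM in the erythroid-like and 2338 CPM in the granulocyte-monocyte-like cells. Carry-over of RNA between cells was not tested. Only 4 erythroid-like BFU-E cells lacked any granulocyte-monocyte marker count, and in these Psmb8 had 32.5 CPM (17.3 to 55.6) with a count in 3 of the 4.

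Per length, the constitutive catalytic genes outweighed the immunoproteasome genes in every class. With CPM divided by the length of the principal transcript, Psmb8, Psmb9 and Psmb10 held 25.02% of the level of the 6 catalytic genes on the BFU-E plate and 6.39% on the CFU-E plate. The share was 14.9% in erythroid-like and 35.3% in granulocyte-monocyte-like BFU-E-plate cells. It was 5.36% in erythroid-like CFU-E cells, all of it Psmb10, and 24.6% in the 3 lymphoid-like cells. Within subunit pairs, Psmb8 held 16.5% of the Psmb5 and Psmb8 level in erythroid-like BFU-E cells, Psmb9 held 4.51% with Psmb6, and Psmb10 held 35.4% with Psmb7. In granulocyte-monocyte-like cells these were 50.8%, 15.5% and 45.3%. The shares move with the length used, and without length scaling the plates gave 35.6% and 9.13%. With the union of all exons as the length, Psmb8, Psmb9 and Psmb10 held 8.69%, 3.93% and 55.4% of their pairs in erythroid-like BFU-E cells. In granulocyte-monocyte-like cells they then held 33.2%, 13.7% and 65.3%. Which partner was larger thus depended on the length for Psmb10 in both classes and for Psmb8 in granulocyte-monocyte-like cells.

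**Figure D4:**
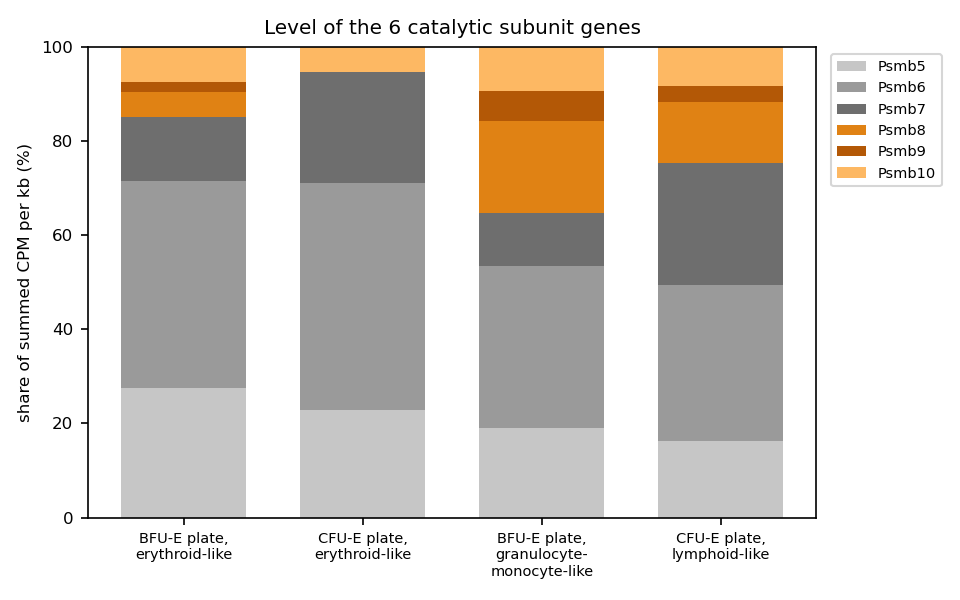
Share of each catalytic gene in the summed CPM per kilobase of the 6 catalytic genes, by class of cells. Grey segments are constitutive and orange segments immunoproteasome genes, which hold 14.9%, 5.36%, 35.3% and 24.6% from left to right.

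Of the 3 constitutive catalytic genes, Psmb5 was lower in erythroid-like CFU-E cells on both scales. Psmb6 was lower in CPM but only 1.11-fold lower on the TMM scale, and Psmb7 had no direction common to both. Psmb5, the beta5 subunit, stood at 121 CPM in erythroid-like BFU-E cells (10 to 300 per cell, median 120) and 54.8 CPM in erythroid-like CFU-E cells (0 to 160, median 50). That is 2.22-fold lower (1.96 to 2.50), with 81 of 86 CFU-E cells under the BFU-E median, and 1.46-fold lower on the TMM scale. Psmb6, the beta1 subunit, had 172 and 102 CPM, 1.68-fold lower (1.53 to 1.85), with ranges of 20 to 870 and 10 to 220 per cell. Psmb7, the beta2 subunit, had 76.98 and 72.8 CPM, and its ratio of 0.946 (0.833 to 1.07) included 1. None of these 3 partners was higher in erythroid-like CFU-E cells in CPM.

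The PA28 genes stood out among the activators. Psme1, the PA28 alpha subunit, had 133 CPM (123 to 143) in erythroid-like BFU-E cells, from 0 through 130 to 580 per cell. In erythroid-like CFU-E cells it had 37.2 CPM (33.2 to 41.5), from 0 through 30 to 130, which is 3.56-fold lower (3.12 to 4.08) and 2.32-fold lower on the TMM scale. Psme2, the PA28 beta subunit, had 82.3 CPM in the former (0 through 60 to 340 per cell) and 22.6 CPM in the latter (0 through 20 to 110), 3.65-fold lower (3.07 to 4.34). None of the 86 CFU-E cells exceeded the BFU-E median for Psme1 and 3 did for Psme2. In granulocyte-monocyte-like cells Psme1 and Psme2 had 180 and 82.8 CPM. Psme2 has a near-identical copy, Psme2b, which had 6.98 and 1.74 CPM in the erythroid-like cells, and Psme1 shares exonic sequence with Emc9 on the other strand. Psme3, the nuclear PA28 gamma, had 33.6 and 27.3 CPM. Psme4, the PA200 activator, had 79.1 and 53.4 CPM, a ratio of 0.675 (0.590 to 0.773). With TMM factors Psme3 was 1.22-fold and Psme4 1.02-fold higher, so neither has a direction common to both scales.

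Psmf1, which encodes the proteasome inhibitor PI31, showed the opposite. It had 96.4 CPM in erythroid-like BFU-E cells (0 through 100 to 240 per cell) and 198 CPM in erythroid-like CFU-E cells (0 through 180 to 560). The ratio was 2.06 (1.86 to 2.27), with 26 of 86 CFU-E cells above every erythroid-like BFU-E cell. Granulocyte-monocyte-like cells had 70.3 CPM and the lymphoid-like cells 63.3 CPM, so the higher level was seen in 1 of the 4 classes. Within erythroid-like CFU-E cells alone, its rank correlation with a score of erythroid maturation genes less progenitor genes was weak (rho 0.198 over 86 cells of 1 plate).

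The 3 genes with the highest ratios were Psmb1, Psmd3 and Psmd2. Psmb1, the beta6 structural subunit, had 227 CPM (214 to 240) in erythroid-like BFU-E cells, from 80 through 210 to 600 per cell. In erythroid-like CFU-E cells it had 868.5 CPM (849 to 888), from 280 through 840 to 1760, a ratio of 3.83 (3.60 to 4.07), and 68 of 86 cells lay above the highest erythroid-like BFU-E cell. Psmd2, the base scaffold Rpn1, had 689 CPM (30 through 700 to 1380) and 1845 CPM (290 through 1905 to 3850), a ratio of 2.68 (2.58 to 2.78), with 65 of 86 cells above the BFU-E range. Psmd3, the lid subunit Rpn3, had 35.3 CPM (0 through 30 to 170) and 101 CPM (0 through 50 to 710), a ratio of 2.85 (2.43 to 3.36), but only 16 of 86 cells lay above that range. Per length it was the lowest lid gene in both classes, at 16.4 and 46.9 CPM per kilobase. Psmd3 shares exonic sequence with Gm12356 on the other strand.

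The same 3 genes were also read in the other class of each plate, which differ in cell type as well as in plate. In the lymphoid-like cells of the CFU-E plate Psmb1 had 460, 630 and 740 CPM, Psmd2 1210, 1930 and 1230 CPM, and Psmd3 had 123 CPM in sum. Granulocyte-monocyte-like cells of the BFU-E plate had 220, 610 and 31.8 CPM. Between these 2 classes 4 members were at least 2-fold higher in the lymphoid-like cells, or 8.51% against 15.3% of all genes, and 12 were lower, or 25.5% against 41.4%. The higher ones were Psme3, Psmb1, Psmd2 and Psmd3, and the ratios of the last 3 were 2.77 (2.35 to 3.25), 2.39 (2.15 to 2.64) and 3.88 (2.61 to 5.64). Erythroid markers summed to 633 CPM in the lymphoid-like cells (220 to 930 per cell, Tal1 and Trim10 at 0) against 15785 CPM in the erythroid-like cells of the same plate. Psmd1 and Psmd11 were also high in the lymphoid-like cells, at 673 and 587 CPM. Psmf1 (63.3 CPM) and Psmd5 (43.3 CPM) in the lymphoid-like cells lay at or under the BFU-E plate levels. Plate and cell type cannot be told apart for these genes.

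**Figure D5:**
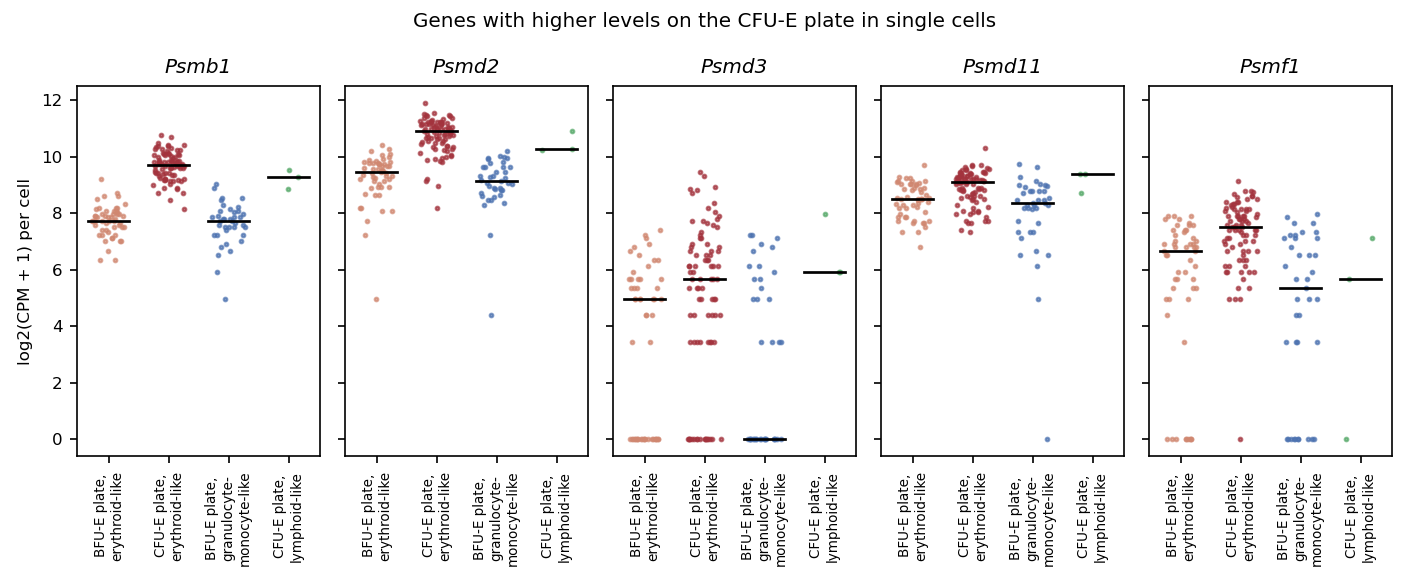
Level of Psmb1, Psmd2, Psmd3, Psmd11 and Psmf1 in single cells as log2(CPM + 1), by class of cells, with bars at the medians. Psmb1 and Psmd2 are high in both classes of the CFU-E plate, whereas Psmf1 has medians of 180 CPM in the erythroid-like and 50 CPM in the lymphoid-like cells of that plate.

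The alpha ring, which gates the core, had no member with a positive log2 fold in CPM. Its median over 8 genes was -0.35, against -0.54 for all genes, and 6 of the 8 were positive on the TMM scale with a median of 0.24. Psma1 was level, at 333 and 331 CPM, and was the highest core gene per length in erythroid-like BFU-E cells at 277 CPM per kilobase. Psma2 had 194 and 106 CPM. Psma8, the alternative alpha subunit known from testis, was the lowest of the ring at 21.5 and 6.74 CPM, 3.19-fold lower (2.31 to 4.45), and came from 16 of 53 and 13 of 86 cells.

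Beyond Psmb1, the structural beta genes diverged: Psmb2 had 161 and 198 CPM, Psmb3 had 130 and 79.9 CPM, and Psmb4 had 154 and 84.1 CPM. Psmb1 had the lowest level of the 4 per length in erythroid-like BFU-E cells, at 129 CPM per kilobase, and the highest in erythroid-like CFU-E cells, at 494. Subunits that occupy the same ring in equal number in the particle thus did not have equal CPM per kilobase in either class. In erythroid-like BFU-E cells the 4 spanned only 129 to 187. The measure rests on the principal transcript length and on read counts, so it does not give transcript numbers.

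Most genes of the base were higher in erythroid-like CFU-E cells, few of them by 2-fold. Of its 9 genes, 7 had a positive log2 fold on both scales, with a median of 0.34 in CPM and 0.93 with TMM. Besides Psmd2, these were Psmd4, the ubiquitin receptor Rpn10 (231 and 328 CPM), Psmd1, the scaffold Rpn2 (477 and 645 CPM), and the ATPases Psmc2, Psmc3, Psmc4 and Psmc6 with ratios from 1.08 to 1.29. The ATPase Psmc5 was lower, with 268 and 131 CPM (60 to 530 and 30 to 370 per cell), 2.05-fold lower (1.89 to 2.22) and 1.35-fold lower with TMM. Psmc1 was 1.60-fold lower in CPM but near level with TMM, at 1.05-fold lower. The hexameric ATPase ring thus had members with ratios on either side of 1, and Psmc5 was the member clearly lower on both scales.

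The lid was centred near 0 in CPM, with a median of 0.04 over 8 genes and 7 positive on the TMM scale. Psmd12 was lowest, at 335 and 208 CPM, and Psmd3 highest. Psmd14, the deubiquitinase Rpn11, had 319 and 274 CPM, a ratio of 0.861 (0.808 to 0.917). Psmd11, Rpn6, had 378 and 515 CPM, a ratio of 1.36 (1.29 to 1.44).

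The assembly factors differed among themselves. Among those of the base, Psmd9 had 58.7 and 110 CPM (ratio 1.87, 1.64 to 2.13), Psmd5 had 218 and 341 CPM (ratio 1.57, 1.46 to 1.68), and Psmd10 had 58.5 and 37.1 CPM. Psmd9 passed the 2-fold line across whole plates and lies just under it here. Among those of the core, Psmg1 had 83.02 and 34.4 CPM, 2.41-fold lower (2.08 to 2.80), and its partner Psmg2 had 152 and 142 CPM. Psmg4 had 10.2 and 3.72 CPM, 2.74-fold lower (1.74 to 4.38), in 29 of 53 and 23 of 86 cells, while its partner Psmg3 was level at 32.6 and 32.7 CPM. In CPM, 1 gene in each of these pairs of partners was at least 2-fold lower and the other near a ratio of 1. With TMM factors Psmg1 was 1.58-fold and Psmg4 1.66-fold lower, whereas Psmg2 was 1.41-fold and Psmg3 1.498-fold higher. With 1 CPM added on both scales, the log2 fold of Psmg4 was -1.24 in CPM and -0.73 with TMM factors. The reading of these pairs thus depends on the scale.

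Partners outside the symbol rule came from a fixed list of which 11 were measured, with 2 at least 2-fold lower and 1 at least 2-fold higher. The shares of all genes against which this and the next lists stand are 32.2% lower and 6.07% higher. Pomp, the core maturation chaperone, had 102 and 41.2 CPM, and Sem1, a small lid subunit, had 56.98 and 14.9 CPM. Txnl1, a thioredoxin bound to the regulatory particle, had 298 and 656 CPM, and 473 CPM in the lymphoid-like cells. Of the measured ubiquitin genes, Uba6, an activating enzyme, was lower (103 and 32.4 CPM), and Ubb, a polyubiquitin gene, had 595 and 1089 CPM. Of 10 shuttle and unfoldase genes 2 were lower, Nsfl1c (126 and 61.5 CPM) and Ufd1 (88.3 and 43.8 CPM), both cofactors of the unfoldase p97. Of 11 regulators of proteasome genes 2 were lower, Nfya (25.8 and 5.12 CPM) and Stat3 (119 and 57.2 CPM), and Nfyc had 94.3 and 161 CPM. Of 12 erythroid ubiquitin enzymes 3 were higher, Trim10 (0 and 80.8 CPM), Ube2l6 (23.4 and 80.5 CPM) and Rnf123 (37.2 and 97.8 CPM), and 3 were lower.

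Genes of antigen processing and peptide loading went in both directions. Of 11 measured genes for peptide loading and MHC class I, 5 were at least 2-fold lower in erythroid-like CFU-E cells, where 32.2% of all genes were, and none was 2-fold higher. Another 2 had a positive log2 fold, and the summed level of the list was 2885 CPM in erythroid-like BFU-E and 3664 CPM in erythroid-like CFU-E cells. The peptide transporter Tap1 had 44.3 and 1.63 CPM, 27.2-fold lower. H2-T23, a class Ib molecule, had 75.1 and 6.395 CPM, and B2m, the light chain of class I, had 163 and 26.6 CPM. Of 7 measured interferon response genes 3 were lower, against the same 32.2% of all genes, among them Bst2 (22.6 and 2.56 CPM) and Gbp7 (41.1 and 6.74 CPM). On the BFU-E plate, 10 of 14 measured interferon response genes and 3 of 11 antigen processing genes were at least 2-fold higher in the granulocyte-monocyte-like than in the erythroid-like cells, where 14.5% of all genes were. The interferon list had 7 measured genes in the comparison of erythroid-like cells and 14 here, so some passed the level filter through the class in which they are high, and the count of 10 is a description. Irf1, an activator of immunoproteasome genes, had 104 CPM in the former and 7.92 CPM in the latter.

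Psmb8 (chromosome 17, 34197721 to 34201454, plus strand, GRCm38) and Psmb9 (34181987 to 34187764, minus strand) flank Tap1 in the MHC region. The RefSeq starts of Psmb9 and Tap1 point away from each other with 225 bases between them, and GENCODE M21 gives the 2 genes overlapping exons on opposite strands. The use of strand in counting is not given in the sources used here, so reads of that overlap cannot be assigned. Psmb10 lies elsewhere, on chromosome 8. The PA28 genes Psme1 and Psme2 start 12990 bases apart on chromosome 14. Of the 48 members, 13 share exonic sequence with another gene.

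The lists that place the cells in erythroid differentiation were also read. In erythroid-like CFU-E cells, 13 of 16 measured genes of erythroid maturation were higher by 2-fold or more, against 6.07% of all genes. Many of these genes are also erythroid markers that named the classes. Of 8 measured progenitor genes 7 were at least 2-fold lower, against 32.2% of all genes. The progenitor list summed to 802 CPM in erythroid-like BFU-E and 70.7 CPM in erythroid-like CFU-E cells. Its genes could thus pass the level filter through the former, and the count is a description. Of 20 mitotic genes 1 was higher and 2 were lower.

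Within the BFU-E plate, granulocyte-monocyte-like and erythroid-like cells shared library preparation and lane, so this contrast holds the plate fixed. Only Psmb8 and Psmb9 of the 47 members differed by 2-fold. Psmb8 was 4.82-fold higher (4.15 to 5.599) and Psmb9 4.08-fold higher (3.11 to 5.39) in granulocyte-monocyte-like cells, together 4.26% of the members against 14.5% of all genes. No member was 2-fold lower, where 9.03% of all genes were. Psmb10 was next at 1.69-fold (1.43 to 2.004), and the lowest was Psmg2 at 94.1 and 152 CPM. The median log2 fold of the members was -0.14. Across whole plates, with these 39 cells included, Psmb8 stood at 114 and 3.03 CPM and Psmb9 at 31.7 and 0.674 CPM.

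Sequence upstream of the members was read from RefSeq windows (GRCm38.p6), taking the 250 bases before the most 5' start. Of the 48 members 40 had a window, and Psma8, Psmb1, Psmb2, Psmb7, Psmc3, Psmd3, Psmd7 and Psmg2 had none. Motifs were searched on both strands. The antioxidant response element TGACNNNGC, bound by the NFE2L1 and NFE2L2 factors known to regulate proteasome genes, was in 5 of the 40 windows (12.5%) and in 10.1% of 27025 windows of all genes. The erythroid GATA letters AGATAA were in 2 (5%, against 10.2%), the STAT letters TTCNNNGAA in 2 (5%, against 7.14%), and CCAAT in 14 (35%, against 34.5%). The CACC box CCACNCCC was in 6 (15%, against 15.9%). The interferon response element, GAAA followed after any 2 bases by GAAA, was in 3 (7.5%, against 3.05%), Psmb3, Psmd4 and Psmd9. It was not in the Psmb8, Psmb9 or Psmb10 window. The Psmb8 and Psmb9 windows lie in exons of longer GENCODE M21 transcripts, and sequence upstream of those longer transcripts was not searched. Whether these genes have the element there is therefore not known from these windows.

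The antioxidant response element matches are shown with up to 9 bases on either side, 5' to 3' on the strand of the gene with the match in capitals, because these members differed in direction. Their log2 folds in erythroid-like cells were -1.13 for Psmb5, -0.75 for Psmb6, -0.68 for Psmd12, 0.37 for Psmc6 and 0.89 for Psmd9. A match to letters does not show binding. In order, the windows are chr14:54618025-54618051 (minus strand), chr11:70525339-70525356 (plus), chr11:107479278-107479298 (plus), chr14:45329588-45329614 (plus) and chr5:123228150-123228176 (plus), and none overlaps a GENCODE M21 exon.
Psmb5: gtgaagttgTGACGTCGCggcgttgcc
Psmb6: taaagagagTGACGGAGC
Psmd12: tctGCTGTGTCAcatttgccc
Psmc6: cagccagtaGCTAAGTCAggcattgct
Psmd9: tctagccggTGACCCCGCccacttcca

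The 2 GATA matches were in Psmf1 (log2 fold 1.03, chr2:151741397-151741420, minus strand) and Psmd9 (0.89, chr5:123228104-123228127, plus strand). The 2 STAT matches were in Psmb8 (-5.47, chr17:34198089-34198115, plus strand, inside a longer Psmb8 exon of GENCODE M21) and Psmg1 (-1.25, chr16:95991186-95991210, minus strand). Both motifs were less frequent in members than in all genes, and a link of motif to direction was not tested.
Psmf1: gctttgagaAGATAAgccctagcc
Psmd9: tgggcctatTTATCTctaccgggt
Psmb8: cctccgctgTTCCCAGAAgatgccccc
Psmg1: actcatgTTCTCTGAAtccgcttgc

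Longer members tended to have higher log2 folds over the 47 measured (Spearman rho 0.465 in erythroid-like cells). Over 8673 genes with a principal transcript the same value was -0.0885. Short genes in the set include Psmg4 (555 bases) and Psmb5 (899 bases), and Psmd2 has 2961 bases. These correlations run across genes of the same pair of plates, and genes are not replicates.

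Cell by cell, rank correlations between members were low, and whether the members vary as a block cannot be read from these counts. Among 31 core and regulatory members, the median rank correlation over 465 pairs was 0.114 in the 53 erythroid-like BFU-E cells, 0.0539 in the 86 erythroid-like CFU-E cells and 0.101 in the 39 granulocyte-monocyte-like cells, which at these counts is no finding. Psmd2 and Psmb1, high on the same plate, had a rho of 0.0264 with each other in erythroid-like CFU-E cells. The cell maturation score is the level of erythroid maturation genes less that of progenitor genes. The summed level of the members had a rho of 0.421 with this score in erythroid-like BFU-E cells, 0.204 in erythroid-like CFU-E cells and 0.52 in granulocyte-monocyte-like cells. In the last class Psmb9 had 0.583 and Psmb8 0.439 with that score, while Psmb8 had -0.252 in erythroid-like BFU-E cells. The maturation genes summed to 437 CPM and the progenitor genes to 2661 CPM in granulocyte-monocyte-like cells. A high score there can thus reflect low progenitor genes and need not mean erythroid maturation. All cells of a class share a plate and the thinned depth, and these values are given without tests.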

How the data were processed

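Single cells were sorted into plate wells and sequenced with Smart-seq2 and Nextera XT on an Illumina HiSeq, per the labels' protocols. The authors deposited whole-number read counts per gene, which the submitters' processing notes tie to STAR 2.4, featureCounts and the GRCm38 build. For the annotation release and for strand and multimapping reads, the setting is not given in the sources used here. The kit has no molecular identifiers, so intervals cover counting error only. Of 192 columns, 1 matched no sample label and was not used. The plates share 95 index pairs, and 0 cells had identical counts.

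Kept cells had 100000 counts and 2000 genes or more (92 of 96 BFU-E, 89 of 95 CFU-E). They were thinned to 100000 counts and summed by plate or class, giving thinned totals of 9200000 and 8900000. CPM has exact Poisson 95% intervals and ratios exact conditional binomial ones. A gene was measured at a mean of at least 5 CPM and called at 2-fold. Log2 folds use log2(CPM + 1). Classes came from Ward clustering within each plate (1000 variable genes, 10 principal components), with 176 proteasome and list genes left out. Doublets were not called. With 1 sample per cell type no test was run. Lengths and positions are from GENCODE M21. The cell maturation score is the level of erythroid maturation genes less that of progenitor genes. Steps were tested on simulated data. Python 3.11.15, numpy 2.4.6, pandas 2.3.3, scipy 1.17.1 and scikit-learn 1.9.0 were used, and edgeR 4.0.16 and DESeq2 1.42.0 for alternative scaling factors only.

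The members and lists were chosen with earlier results of these data known. Genes given in full were Psmb5 to Psmb10, Psme1 to Psme4, the 6 highest and 6 lowest log2 folds, the extremes of each subunit list, and the 3 largest absolute log2 folds of each pathway list. Others named were chosen after their values were seen. Some pathway genes within the rule are left out here.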

Additional observations from a re-analysis of the deposited data

How the results depend on the processing

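Scaling had the widest effect. For whole plates the median log2 fold of the members (-0.24) was 0.33 with TMM factors, 0.38 with median-of-ratios factors and 0.0369 with totals without the 100 most abundant genes. For erythroid-like cells (-0.29) it was 0.29, 0.34 and -0.0253, and -0.16 in even-numbered cells. Median-of-ratios factors put the median of all genes at 0.10 in erythroid-like cells. Members 2-fold lower numbered 5 with either set of factors, for whole plates and for erythroid-like cells. Members 2-fold higher numbered 9 with TMM factors in both comparisons, 9 and 10 with median-of-ratios factors, and 3 for whole plates in odd-numbered cells. The summed ratio for whole plates (1.17) was 1.73 with TMM, 1.80 with median-of-ratios factors, 1.42 without the 100 genes, 1.13 with all cells and 1.13 without thinning. It was 1.14 in odd- and 1.20 in even-numbered cells, 1.18 without the shallowest and deepest 5% of wells, 1.15 without granulocyte-monocyte-like cells and cells with 3 lymphoid markers, and 1.15 in erythroid-like cells alone. In erythroid-like cells the ratio (1.15) was 1.74, 1.80 and 1.38 under those scalings, 1.13 under a stricter cell filter, 1.11 without thinning, 1.11 in odd- and 1.19 in even-numbered cells. Without Psmd2 and Psmb1 these ratios were 0.961 and 0.945. The immunoproteasome share on the BFU-E plate (25.02%) was 23.2% with all cells, 23.2% in odd- and 26.8% in even-numbered cells, 35.6% without length scaling, and 14.9% without granulocyte-monocyte-like cells or in erythroid-like cells alone. On the CFU-E plate (6.39%) it was 7.98% and 4.53% in odd- and even-numbered cells, 9.13% without length scaling and 8.38% with the union of exons. The cause of these shifts was not tested.

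In erythroid-like cells Psmb8, Psmb9, Psme1 and Psme2 were at least 2-fold lower and Psmb1 and Psmd2 at least 2-fold higher in 15 of 15 alternatives, and 30 of 47 members kept their sign in all 15. Other clustering settings reassigned 0 cells. The union of exons, the removal of Psmd2 and Psmb1, and the restriction to erythroid-like cells were chosen after seeing the data. No paired analysis was possible because cell numbers only name wells and no comparison was tested.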
